A study of Homo sapiens with 4 samples.

Results

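The genes of glycolysis, the pentose phosphate pathway and glucose transport were examined by RNA-seq in MV4-11, a human acute myeloid leukemia (AML) cell line, upon knockdown of the transcription factor CEBPG. The set holds 36 genes chosen by symbol, out of 16490 genes with a value in the deposited table, and the values of a gene's RefSeq transcripts were summed in each library. For 35 of the 36 genes the table has rows, 91 RefSeq transcripts in all, and 34 genes passed the filter of a mean of at least 0.5 FPKM (fragments per kilobase of transcript, normalized to library size). PFKM fell under that filter and was not tested, and PFKFB2 had no row. The control group was sh-NC, 2 libraries of cells with a control short hairpin RNA and CEBPG present, and the knockdown group was sh-CEBPG#3, 2 libraries of cells with 1 hairpin against CEBPG. Per the methods of the study, the cells carried a lentiviral pLKO.1 vector and stable lines were selected with puromycin. The labels do not say whether the libraries of a group were infected separately, so p-values measure only the spread between these libraries, which may be technical. NB4 cells were not analysed here.

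Glycolysis splits glucose into pyruvate in the cytosol and yields ATP and NADH, and in leukemia cells much of the pyruvate is reduced to lactate and exported. The pentose phosphate pathway branches off after the hexokinase step and yields NADPH and the ribose of nucleotides. Several steps are carried by paralogs (isozymes) that differ in regulation, and many of the genes are known targets of the hypoxia-inducible factors (HIF) and of MYC. CEBPG is a C/EBP family member that pairs with other basic leucine zipper factors such as ATF4.

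CEBPG itself had 30.4 and 33.6 FPKM in control and 19.2 and 17.1 FPKM in knockdown libraries, so 56.8% of the control level remained (log2 fold change -0.78, adjusted p = 8.88e-05, limma, Benjamini-Hochberg over all genes tested). Total FPKM ranged from 364353 to 389766, and the read depth is unknown because FPKM values carry no counts. Pearson's r across genes was 0.993 and 0.994 within groups and 0.962 to 0.964 between them. All 8 myeloid markers examined had a value, while none of the 3 T cell and none of the 4 erythroid markers had a row in the table, and the B cell marker CD79A stayed at or under 1.33 FPKM. The summed level of the myeloid markers was 892 and 970 FPKM in sh-NC and 3547 and 3373 FPKM in sh-CEBPG#3 cells, mostly through LYZ (lysozyme), which was 5.19-fold higher. Of these 8 markers, the stem cell factors MEIS1 and HOXA9 were lower (log2 fold changes -0.87 and -0.36, adjusted p = 8.31e-05 and 0.0167), FLT3 and PTPRC were not called, and LYZ, MPO, CD33 and SPI1 were higher. The epithelial keratin KRT8 was 2.69-fold higher, at most 6.26 FPKM, KRT18 went from 9.77 and 10.6 FPKM to 9.75 and 8.57 FPKM and was not called (adjusted p = 0.261), while EPCAM and CDH1 had no row. The part of these markers in the results below was not tested.

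Upon CEBPG knockdown the genes of the set changed in both directions. Of the 34 genes tested, 12 were higher (35.3%) and 5 were lower (14.7%) at an adjusted p under 0.05, and 17 were not called. Of all 12142 genes tested, 18.5% were higher and 23.8% were lower by the same rule. The higher genes included the transporters SLC2A6 and SLC16A3, the kinases HK1 and PFKFB4, the aldolases ALDOA and ALDOC, and GAPDH. The lower genes were SLC2A3, SLC2A5, PFKFB3, PDHA1 and TKT. The median log2 fold change was 0.09 in the set and -0.04 over all genes tested. Without sh-NC replicate 1 these medians were 0.05 and -0.07, and without sh-NC replicate 2 they were 0.14 and -0.0047. With FPKM scaled to equal totals the split was 12 higher and 10 lower, the 5 added being PFKL, ENO1, PKM, LDHB and PDHB, while 19.3% of all genes were higher and 28.8% lower in that setting. With quantile normalization it was 14 higher, with TPI1 and TALDO1 added, and 8 lower, beside 22.2% and 25.2% of all genes. In bulk RNA, fewer cells of a type and less RNA per cell cannot be told apart.

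The threshold of the study for differentially expressed genes (unadjusted p under 0.05 and absolute log2 fold change above 1) was passed by 3 members, SLC2A6 and PFKFB4 upward and SLC2A3 downward. That is 8.82% of the members tested, against 3.41% of all genes tested. The study set this threshold on DESeq2 results, while here it was set on limma with log2(FPKM + 1), so the genes passing may differ. The FPKM ranges of the groups did not overlap in 30 of the 34 members (88.2%), and in 71.7% of all genes tested. The summed FPKM of the set was 6022 and 6502 in control and 7215 and 7064 in knockdown libraries, which was 1.65%, 1.68%, 1.85% and 1.88% of each library's total. Of the 17 called members, 11 were called under every one of the 13 alternative settings, and 6 (GPI, PFKP, GAPDH, PGK1, PFKFB3 and PDHA1) lost the call under at least 1. An exact two-sided permutation test of 2 against 2 libraries cannot give a p below 0.333, so the calls rest on the variance that limma models over all genes.

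**Figure D1:**
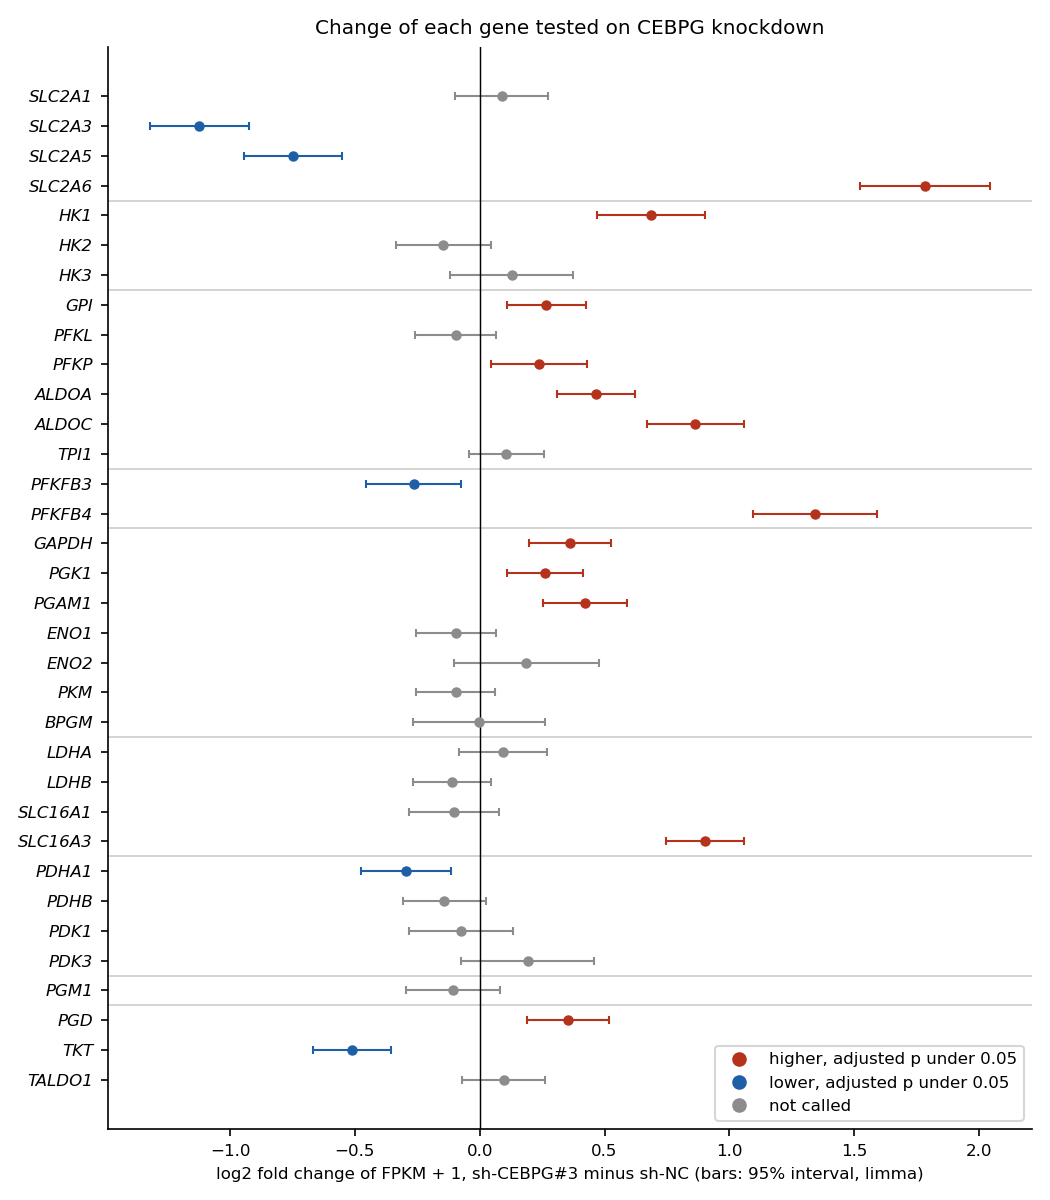
Log2 fold change, sh-CEBPG#3 minus sh-NC, of log2(FPKM + 1) for the 34 genes tested, grouped by role, with the 95% confidence interval from limma as bars. Colour marks the call at an adjusted p under 0.05 (12 higher, 5 lower), and SLC2A6, at 1.78, and SLC2A3, at -1.12, lie at the ends.

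The promoters of 3 members are shown. ALDOC (higher) and PFKFB3 (lower) were picked as the called members whose promoter held an E-box, the motif CACGTG bound by MYC and related factors. That they share the E-box follows from this choice. SLC2A6 is added, after its values were seen, as the member with the largest increase. Each sequence holds the 250 bases before the start of the main (MANE Select) transcript, which in PFKFB3 lies inside the span of the gene, 5′ to 3′ on the gene's strand, from RefSeq on GRCh38.p14 (the files' build is hg38). ALDOC lies at chr17:28576896-28577145 on the minus strand, PFKFB3 at chr10:6202682-6202931 on the plus strand and SLC2A6 at chr9:133479100-133479349 on the minus strand. Capitals mark the E-box and, in either orientation, ACGTG or GCGTG, the forms of the core of the HIF response element.
ALDOC: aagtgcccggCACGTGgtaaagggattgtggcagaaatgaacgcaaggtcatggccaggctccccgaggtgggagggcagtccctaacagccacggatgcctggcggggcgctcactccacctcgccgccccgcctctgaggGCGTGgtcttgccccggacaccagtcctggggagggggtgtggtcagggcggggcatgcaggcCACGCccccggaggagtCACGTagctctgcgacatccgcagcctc
PFKFB3: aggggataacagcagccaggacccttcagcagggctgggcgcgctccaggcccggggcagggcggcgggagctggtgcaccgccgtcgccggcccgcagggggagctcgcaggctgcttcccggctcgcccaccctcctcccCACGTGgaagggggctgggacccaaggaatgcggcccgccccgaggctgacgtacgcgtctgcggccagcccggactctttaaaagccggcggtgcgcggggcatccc
SLC2A6: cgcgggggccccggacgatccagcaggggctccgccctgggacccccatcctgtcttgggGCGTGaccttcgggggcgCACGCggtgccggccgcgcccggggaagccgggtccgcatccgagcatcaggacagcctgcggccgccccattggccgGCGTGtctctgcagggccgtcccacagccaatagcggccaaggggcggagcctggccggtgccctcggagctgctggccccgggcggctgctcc
In ALDOC the E-box begins 240 bases before the start, and ACGTG lies in it on both strands. Nearer the ALDOC start lie GCGTG at 108 and 45 bases and ACGTG at 28 bases. In PFKFB3 the E-box begins 108 bases before the start. SLC2A6 holds GCGTG at 190, 172 and 94 bases before its start and no E-box.

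Windows from 250 bases before to 50 bases after the MANE Select start were found for 27 of the 36 members. ACGTG on either strand was present in 13 of them (48.1%), in 23.8% of all 14473 windows and in 27.8% of the 8401 windows of genes tested. For GCGTG the numbers were 16 members (59.3%), 45.8% of all windows and 53.8% of those of genes tested. CACGTG, which contains ACGTG, was present in ALDOC, PFKFB3, LDHA and PDHB (14.8%), in 8.94% of all windows and in 10.9% of those of genes tested. The C/EBP-ATF element TTGCATCA was found in 0 members and 0.656% of all windows, and the palindromic C/EBP motif TTGCGCAA in 0 members and 0.207% of all windows. With both motifs this rare, 27 windows are too few to show whether the set holds them less often. These matches are letters in a window and no measure of binding. ACGTG was present in ALDOA, ALDOC, PGK1, SLC16A3 and PGD, which were higher, and in PFKFB3, which was lower. It was also present in HK2, ENO2, BPGM, LDHA, PDHB, PDK1 and PDK3, which were not called.

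Glucose transport changed in opposite directions among the 4 transporters, of which 1 rose, 2 fell and 1 was not called. The shares of all genes tested were 18.5% higher and 23.8% lower. SLC2A6 (chromosome 9, 133471094 to 133479099) encodes GLUT6, a hexose transporter of intracellular membranes, and its level was 0.480 and 0.397 FPKM in sh-NC and 3.87 and 4.03 FPKM in sh-CEBPG#3 libraries. Both knockdown libraries lay far above both control libraries. The ratio of the means was 9.01 on the FPKM scale, and the log2 fold change of 1.78 (SE 0.12, adjusted p = 2.81e-06) is smaller because the pseudocount of 1 compresses low values. With a pseudocount of 0.01 it was 3.15.

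SLC2A3 (chromosome 12, 7919230 to 7936187) encodes GLUT3, a high-affinity glucose transporter, and had 14.4 and 15.7 FPKM in sh-NC and 6.62 and 6.09 FPKM in sh-CEBPG#3 libraries. The groups were well separated, and 42.3% of the control level remained (log2 fold change -1.12, SE 0.09, adjusted p = 9.32e-06). Its near-identical paralog SLC2A14, outside the set, went from 1.80 and 1.87 FPKM to 0.271 and 0.980 FPKM, and reads shared by the paralogs make the split between them uncertain. SLC2A5 encodes the fructose transporter GLUT5 and had 12.3 and 13.3 FPKM in sh-NC and 7.0 and 7.44 FPKM in sh-CEBPG#3 libraries. Both knockdown values were below both control values (log2 fold change -0.75, SE 0.09, adjusted p = 0.000115).

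SLC2A1, the widely expressed glucose transporter GLUT1, had 12.2 and 13.3 FPKM in sh-NC and 13.5 and 13.7 FPKM in sh-CEBPG#3 libraries. The difference did not pass the test (log2 fold change 0.09, 95% confidence interval -0.10 to 0.27, adjusted p = 0.423). The summed FPKM of the 4 transporters went from 39.4 and 42.7 to 31.0 and 31.3. Within that sum, SLC2A3 held the highest share in sh-NC cells, with a mean of 36.6%, followed closely by SLC2A5 and SLC2A1 at 31.2% and 31.1%. In sh-CEBPG#3 cells SLC2A1 held 43.7%, SLC2A5 23.2%, SLC2A3 20.4% and SLC2A6 12.7%, the last from 1.07%.

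**Figure D2:**
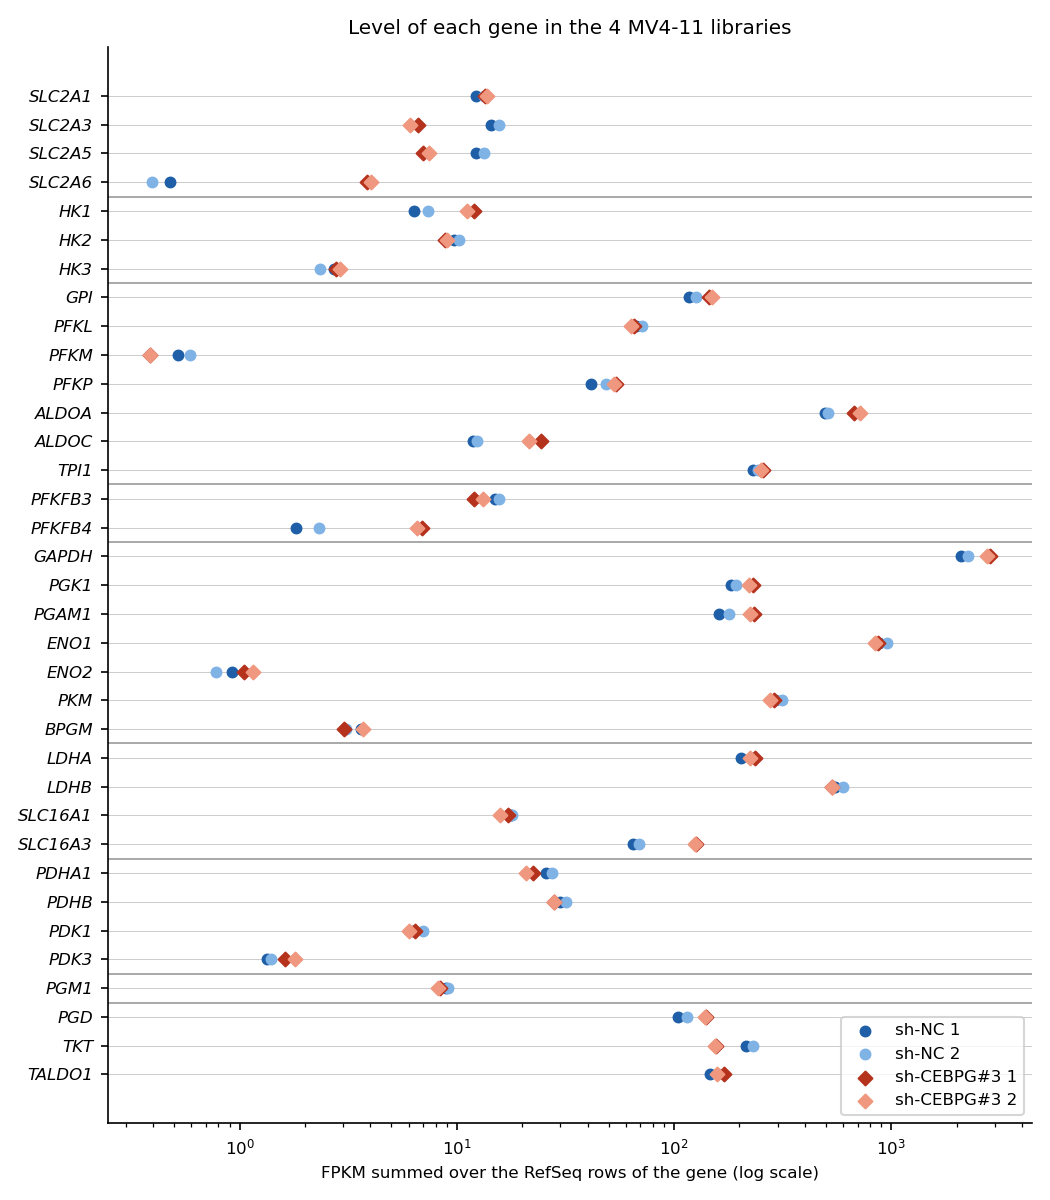
FPKM of the members in each of the 4 libraries on a log axis, with sh-NC and sh-CEBPG#3 libraries as separate points. SLC2A6 and PFKFB4 lie higher and SLC2A3 lower in both knockdown libraries, while GAPDH, at 2093 to 2849 FPKM, is the most abundant member.

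Hexokinases trap glucose in the cell by phosphorylation. HK1 (chromosome 10, 69270000 to 69401882), the broadly expressed isozyme, had 6.33 and 7.34 FPKM in sh-NC and 12.05 and 11.1 FPKM in sh-CEBPG#3 libraries. Its groups did not overlap, with a ratio of 1.70 (log2 fold change 0.69, SE 0.10, adjusted p = 0.000364). HK2, the inducible isozyme, had 9.69 and 10.3 FPKM in sh-NC and 8.85 and 8.98 FPKM in sh-CEBPG#3 libraries (log2 fold change -0.15, 95% confidence interval -0.33 to 0.04, adjusted p = 0.195). HK2 values were lower in both knockdown libraries, and the difference did not pass the test. HK3, the isozyme of myeloid cells, ranged from 2.34 to 2.91 FPKM over the libraries and was not called (adjusted p = 0.378). On the FPKM scale, HK2 held 51.6% and HK1 35.3% of the hexokinase sum in sh-NC cells, and HK1 49.6% and HK2 38.2% in sh-CEBPG#3 cells, so the order of these isozymes was exchanged.

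In the upper part of glycolysis, 4 of 6 genes tested were higher (66.7%) and none was lower. By the same rule, 18.5% of all genes tested were higher and 23.8% lower. ALDOA, the main aldolase, which splits the hexose into a pair of trioses, had 495 and 511 FPKM in sh-NC and 672 and 720.0 FPKM in sh-CEBPG#3 libraries (log2 fold change 0.47, adjusted p = 0.00054). ALDOC (chromosome 17, 28573120 to 28576895), known from brain, had 11.9 and 12.4 FPKM in sh-NC and 24.4 and 21.6 FPKM in sh-CEBPG#3 libraries (log2 fold change 0.86, SE 0.09, adjusted p = 4.37e-05). Both aldolases were higher in each knockdown library than in each control library, and ALDOC still made up only 3.21% of their summed FPKM after 2.36% in sh-NC cells.

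GPI, which isomerizes the phosphorylated glucose to fructose phosphate, had 118 and 127 FPKM in sh-NC and 145 and 149 FPKM in sh-CEBPG#3 libraries (log2 fold change 0.27, adjusted p = 0.0126). Its call was lost without sh-CEBPG#3 replicate 1 or without sh-CEBPG#3 replicate 2 (adjusted p = 0.0896 and 0.141). PFKP, the platelet isozyme of phosphofructokinase, the committed step, had 41.6 and 48.9 FPKM in sh-NC and 53.8 and 52.9 FPKM in sh-CEBPG#3 libraries. It passed narrowly (log2 fold change 0.24, adjusted p = 0.0488) and failed without sh-NC replicate 1 (log2 fold change 0.12, adjusted p = 0.263), without sh-CEBPG#3 replicate 1 (adjusted p = 0.187) and without sh-CEBPG#3 replicate 2 (adjusted p = 0.14). The liver isozyme PFKL had 66.8 and 71.5 FPKM in sh-NC and 65.5 and 63.6 FPKM in sh-CEBPG#3 libraries (log2 fold change -0.10, adjusted p = 0.307). PFKL was called lower with equal totals (adjusted p = 0.0268) and with quantile normalization (adjusted p = 0.0331). The muscle isozyme PFKM had 0.521 and 0.592 FPKM in sh-NC and 0.389 and 0.385 FPKM in sh-CEBPG#3 libraries and was too low to be tested. TPI1, which interconverts the trioses, had 230.3 and 243 FPKM in sh-NC and 258 and 251 FPKM in sh-CEBPG#3 libraries and was not called (log2 fold change 0.11, adjusted p = 0.233).

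The PFKFB enzymes make and break the fructose bisphosphate that activates phosphofructokinase, and their genes changed in opposite directions. PFKFB4 (chromosome 3, 48517684 to 48563136) had 1.81 and 2.33 FPKM in sh-NC and 6.95 and 6.59 FPKM in sh-CEBPG#3 libraries. The knockdown values lay well above the control values, by a ratio of 3.27 (log2 fold change 1.34, SE 0.11, adjusted p = 1.25e-05). PFKFB3 (chromosome 10, 6144921 to 6326637), whose kinase activity far exceeds its phosphatase activity, had 15.1 and 15.6 FPKM in sh-NC and 11.95 and 13.3 FPKM in sh-CEBPG#3 libraries. The decrease of PFKFB3 was modest (log2 fold change -0.26, SE 0.09, adjusted p = 0.0301) and failed the test without sh-CEBPG#3 replicate 1 (adjusted p = 0.203) and without sh-NC replicate 2 (adjusted p = 0.0746). PFKFB4 made up 11.9% of the PFKFB3 and PFKFB4 sum in sh-NC cells and 34.99% in sh-CEBPG#3 cells.

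In the lower part of glycolysis, 3 of 7 genes were higher (42.9%), none was lower and 4 were not called. Over all genes tested, 18.5% were higher and 23.8% lower. GAPDH, the triose phosphate dehydrogenase and the most abundant member, had 2093 and 2264 FPKM in sh-NC and 2849 and 2749 FPKM in sh-CEBPG#3 libraries. It was 1.29-fold higher with no overlap (log2 fold change 0.36, SE 0.07, adjusted p = 0.00313). The call was lost without sh-CEBPG#3 replicate 1 (adjusted p = 0.135) and without sh-CEBPG#3 replicate 2 (adjusted p = 0.0914), and quantile normalization gave a log2 fold change of 0.19. PGAM1, the phosphoglycerate mutase, had 162 and 179.8 FPKM in sh-NC and 234 and 223 FPKM in sh-CEBPG#3 libraries (log2 fold change 0.42, adjusted p = 0.00158). PGK1, the phosphoglycerate kinase and the first ATP-yielding step, had 183 and 193 FPKM in sh-NC and 229.9 and 221 FPKM in sh-CEBPG#3 libraries. Its log2 fold change of 0.26 (adjusted p = 0.0123) failed the test without sh-CEBPG#3 replicate 1 (adjusted p = 0.177) and without sh-CEBPG#3 replicate 2 (adjusted p = 0.0924).

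PKM, the pyruvate kinase, had 290.2 and 313 FPKM in sh-NC and 288 and 276 FPKM in sh-CEBPG#3 libraries. It lay slightly lower in both knockdown libraries without passing the test (log2 fold change -0.10, 95% confidence interval -0.26 to 0.06, adjusted p = 0.299). With equal totals it passed (log2 fold change -0.12, adjusted p = 0.015), and with quantile normalization too (adjusted p = 0.00869). ENO1, the main enolase, ranged from 842 to 956 FPKM over the libraries and was not called (adjusted p = 0.321). With equal totals ENO1 was called lower (adjusted p = 0.0151). The neuronal enolase ENO2 stayed at or under 1.16 FPKM, and BPGM, which makes the bisphosphoglycerate of red cells, overlapped between the groups (adjusted p = 0.983). GAPDH, PGK1, PGAM1, ENO1 and the lactate dehydrogenases have processed pseudogenes, and how shared reads were assigned is not given in the sources used here.

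At the lactate end, the exporter rose and the dehydrogenases did not pass the test. SLC16A3 (chromosome 17, 82217934 to 82240086) encodes MCT4, which exports lactate, and had 64.7 and 68.7 FPKM in sh-NC and 126 and 125 FPKM in sh-CEBPG#3 libraries. Both knockdown libraries were close to each other and 1.88-fold above the control mean (log2 fold change 0.90, SE 0.07, adjusted p = 7.9e-06). SLC16A1 encodes MCT1, which carries lactate in either direction, had 17.8 and 17.9 FPKM in sh-NC and 17.2 and 15.9 FPKM in sh-CEBPG#3 libraries, and was not called (log2 fold change -0.10, 95% confidence interval -0.28 to 0.08, adjusted p = 0.331). The share of SLC16A3 in the sum of both transporters was 78.9% in sh-NC and 88.3% in sh-CEBPG#3 cells.

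LDHA, the lactate dehydrogenase subunit linked to lactate formation, had 203 and 231 FPKM in sh-NC and 237 and 225 FPKM in sh-CEBPG#3 libraries, and the groups overlapped (adjusted p = 0.376). Its log2 fold change was 0.09 with all rows and -0.09 with coding rows only, so it had no stable direction, and it passed only without sh-NC replicate 2 (log2 fold change 0.19, adjusted p = 0.0378). LDHB, the subunit linked to lactate use, had 551 and 599 FPKM in sh-NC and 531 and 532 FPKM in sh-CEBPG#3 libraries. LDHB was lower in both knockdown libraries without passing (log2 fold change -0.11, adjusted p = 0.231), and it passed with equal totals (adjusted p = 0.0163), with quantile normalization (adjusted p = 0.0137) and without sh-NC replicate 1 (adjusted p = 0.0455). LDHB exceeded LDHA in FPKM in every library and held 72.6% of their sum in sh-NC and 69.7% in sh-CEBPG#3 cells.

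Of the pyruvate dehydrogenase genes, PDHA1, the E1 alpha subunit, was lower, with 25.9 and 27.5 FPKM in sh-NC and 22.4 and 20.7 FPKM in sh-CEBPG#3 libraries. The groups did not overlap (log2 fold change -0.30, SE 0.08, adjusted p = 0.0141), and the call was lost without sh-CEBPG#3 replicate 2 (adjusted p = 0.12). PDHB, the E1 beta subunit, had 29.97 and 31.8 FPKM in sh-NC and 27.9 and 27.9 FPKM in sh-CEBPG#3 libraries and was not called (log2 fold change -0.14, adjusted p = 0.157), although it passed with equal totals (adjusted p = 0.0211) and with quantile normalization (adjusted p = 0.0497). PDK1 and PDK3, kinases that switch the complex off, were not called either (adjusted p = 0.554 and 0.222). PGM1, which links glycogen to glycolysis, had a log2 fold change of -0.11 (adjusted p = 0.338).

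Of the 3 pentose phosphate genes, 1 was higher, 1 was lower and 1 was not called. Among all genes tested, the shares were 18.5% higher and 23.8% lower. PGD, the phosphogluconate dehydrogenase of the NADPH-yielding oxidative branch, had 104 and 114 FPKM in sh-NC and 140.2 and 139 FPKM in sh-CEBPG#3 libraries and was higher (log2 fold change 0.35, SE 0.07, adjusted p = 0.00354). TKT (chromosome 3, 53224712 to 53256022), the transketolase of the non-oxidative branch, had 213 and 231 FPKM in sh-NC and 156 and 155 FPKM in sh-CEBPG#3 libraries. Both knockdown libraries lay well below both control libraries, at 70.01% of the control mean (log2 fold change -0.51, SE 0.07, adjusted p = 0.000322). TALDO1, the transaldolase of the same branch, had 147 and 160.2 FPKM in sh-NC and 169.7 and 159 FPKM in sh-CEBPG#3 libraries and overlapped between the groups (log2 fold change 0.10, 95% confidence interval -0.07 to 0.26, adjusted p = 0.333).

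When each RefSeq transcript with a mean of at least 0.5 FPKM was tested singly, an alternative added once the data had been seen, 71 of the 91 member transcripts were tested, 8 were higher and 3 were lower, while 8.24% of all 18624 transcripts tested were called in either direction. TKT was the member whose transcripts changed in opposite directions. NM_001064 had 188 and 207 FPKM in sh-NC and 88.8 and 109 FPKM in sh-CEBPG#3 libraries (log2 fold change -0.99, adjusted p = 0.0291), and NM_001135055 had 20.9 and 22.6 FPKM in sh-NC and 62.8 and 43.0 FPKM in sh-CEBPG#3 libraries (log2 fold change 1.22, adjusted p = 0.0438). NM_001064 thus went from 87.9% and 89.5% of the gene's FPKM to 56.9% and 70.6%. Of the PFKFB4 transcripts, NM_001317136 went from 0.369 and 0.384 FPKM to 3.56 and 2.53 FPKM and NM_004567 from 0.976 and 0.447 FPKM to 3.36 and 3.68 FPKM, and both were called higher. NM_002654, which encodes the M2 form of PKM, held 96.6% and 91.7% of the gene's FPKM in sh-NC and 84.8% and 91.3% in sh-CEBPG#3 libraries. The M1 transcript NM_182471 had 6.11 and 22.6 FPKM in sh-NC and 39.0 and 17.9 FPKM in sh-CEBPG#3 libraries, and its groups overlapped.

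Other genes of the same pathways were taken as a list of 56, of which 43 were tested. Of these, 12 were higher (27.9%) and 11 lower (25.6%), beside 18.5% and 23.8% of all genes tested, with a median log2 fold change of -0.02. PRPS1, which turns ribose phosphate into the precursor of nucleotides, went from 20.2 and 23.2 FPKM to 13.3 and 11.1 FPKM (log2 fold change -0.79, adjusted p = 0.000248). GBE1, the glycogen branching enzyme, went from 9.86 and 10.9 FPKM to 20.1 and 19.5 FPKM (log2 fold change 0.87, adjusted p = 3.61e-05). SLC2A14, given beside SLC2A3, was the other gene named by size (log2 fold change -0.84, adjusted p = 0.00566). Without sh-CEBPG#3 replicate 1 it was -0.52, and the call was lost with the most abundant transcript (adjusted p = 0.0699) and with no filter (adjusted p = 0.0591). Within the list, 5 of 12 glycolysis genes tested were higher (41.7%) and 1 was lower (8.33%). Of 10 glycogen genes, 4 were higher (40%) and 1 was lower (10%). For the pentose phosphate pathway, 2 of 8 genes were higher (25%) and 3 were lower (37.5%). For glucose transport, 0 of 3 genes were higher and 2 were lower (66.7%). Among 10 genes of pyruvate entry tested, 1 was higher (10%) and 4 were lower (40%), beside 18.5% and 23.8% of all genes tested. The mitochondrial pyruvate carriers MPC1 and MPC2 were not called (adjusted p = 0.414 and 0.173). The list's count of higher genes was 6 without sh-CEBPG#3 replicate 1, and its count of lower genes was 7 without sh-CEBPG#3 replicate 2.

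Known HIF targets outside glycolysis gave 8 higher (50%) and 2 lower (12.5%) of 16 tested, beside 18.5% and 23.8% of all genes tested, with a median log2 fold change of 0.23. BNIP3L and BNIP3, mitophagy receptors, went from 8.51 and 9.48 to 18.9 and 17.2 FPKM and from 15.03 and 16.01 to 30.7 and 28.1 FPKM (log2 fold changes 0.93 and 0.88, adjusted p = 3.52e-05 and 2.55e-05). P4HA1, a collagen prolyl hydroxylase subunit, was higher (log2 fold change 0.64, adjusted p = 0.000143), and its most abundant transcript alone gave 4.43. The lower genes were NDRG1 and ERO1A, at -0.60 and -0.35, and VEGFA was not called (log2 fold change 0.07, adjusted p = 0.486). These 3 fall outside the naming rule and were chosen after their values were seen. The count of higher genes was 5 without sh-CEBPG#3 replicate 1 or sh-NC replicate 1, and the count of lower genes was 1 without sh-CEBPG#3 replicate 2.

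Of 11 regulators of the pathway tested, 2 were higher and 2 were lower (18.2% each, beside 18.5% and 23.8% of all genes tested). TXNIP, an arrestin that lowers glucose uptake, had 91.04 and 97.4 FPKM in sh-NC and 142 and 134 FPKM in sh-CEBPG#3 libraries (log2 fold change 0.55, adjusted p = 0.000256). HIF1A, the oxygen-regulated HIF subunit, had 15.1 and 16.2 FPKM in sh-NC and 22.8 and 21.01 FPKM in sh-CEBPG#3 libraries (log2 fold change 0.46, adjusted p = 0.00167). HIF1AN, a hydroxylase that restrains HIF, was lower (log2 fold change -0.41, adjusted p = 0.00518). The count of lower regulators was 1 without sh-NC replicate 1 or sh-CEBPG#3 replicate 1. HIF activity is set largely at the protein level, which these RNA values do not measure.

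GAPDH was the reference for mRNA in the qPCR and for protein in the western blots of the study, and it is a member called higher here. Of 15 other genes in common use as references, 3 were higher (20.0%) and 5 were lower (33.3%), beside the same shares of all genes. B2M, the light chain of class I HLA molecules, went from 283 and 298 to 652 and 632 FPKM (log2 fold change 1.14, adjusted p = 1.41e-06), and ACTB, beta-actin, from 1630.3 and 1761 to 2911 and 2819 FPKM (log2 fold change 0.76, adjusted p = 3.24e-05). The count of lower references was 2 without sh-CEBPG#3 replicate 1 and 2 without sh-CEBPG#3 replicate 2. Divided by GAPDH, the CEBPG level in knockdown cells was 44.2% of the control, against 56.8% with no reference gene. The same ratio was 25.7% with B2M, 33.6% with ACTB and 58.9% with TBP, which falls outside the naming rule and was chosen after its value was seen.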

How the data were processed

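The authors sequenced RNA of MV4-11 cells, mapped the reads and deposited 1 FPKM value for each RefSeq transcript and library. The submitters' processing notes name HISAT2 2.0.5 and hg38; the program that computed FPKM and the annotation release are not given in the sources used here. Of 28780 rows, 199 had no value and 164 had a value but no symbol. FPKM was summed over the rows of each symbol, which hides opposite changes of transcripts. Depth is unknown, so no count test, counting interval or detection floor is given; the intervals printed are those of limma.

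The 12142 of 16490 genes whose mean reached 0.5 FPKM were compared on log2(FPKM + 1) with limma 3.58.1 in R 4.3.3 (lmFit, eBayes with trend, no block), with Benjamini-Hochberg adjustment over all genes tested; a call is an adjusted p under 0.05. The pseudocount of 1 understates changes of low genes. The fit was tested on simulated data. Groups and replicate numbers come from the sample labels.

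The members and lists were chosen with earlier results of these data known. Named genes are every member, CEBPG, the 3 called genes with the largest change and a mean of at least 1 FPKM in each companion list, and HIF1A, TXNIP, MPC1 and MPC2; exceptions are stated beside their values, and a few genes that the rule names are not reported here. Motifs were searched with Python 3.11.15 in RefSeq windows at GENCODE MANE Select starts, and positions are RefSeq's on GRCh38.p14. Alternatives were quantile normalization, equal totals, no filter, a filter at 1 FPKM, pseudocounts of 0.1 and 0.01, the replicate block, each library left out, the most abundant transcript per gene and, added after the data were seen, coding rows only and each transcript by itself.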

Additional observations from a re-analysis of the deposited data

How the results depend on the processing

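The members past the 2-fold threshold numbered 3 in all 13 alternatives, and the count of members called higher ran from 8 to 14 (9 with the replicate block, 8 to 13 with a library left out). The 5 members called lower became 10 with equal totals, 8 with quantile normalization and 3 with the most abundant transcript, and 4 to 6 with a library left out. With the most abundant transcript per gene, the other pathway genes gave 4 higher and 4 lower, the HIF targets outside glycolysis 5 higher and 1 lower, the regulators 1 lower and the reference genes 2 lower, and without a filter the other pathway genes gave 6 lower. Over all genes tested, 11.1% were higher and 12.8% lower with the most abundant transcript, and 11.3% and 13.5% without a filter. Without these changes the shares were 18.5% and 23.8%. With the replicate block, the regulators gave 1 lower and the reference genes 3 lower, while 22% of all genes tested were lower. Leaving out 1 library gave 6 to 12 higher and 7 to 11 lower other pathway genes, 5 to 9 higher and 1 to 3 lower HIF targets, 1 to 2 lower regulators and 2 to 5 lower reference genes. Direction changed for BPGM (0.0343 with quantile normalization, -0.12 to 0.11 with a library left out), for LDHA (-0.0896 with coding rows only, -0.10 with the most abundant transcript, -0.0002 to 0.19 with a library left out) and for MPC1 (-0.2431 to 0.0274 with a library left out). The cause was not tested. The replicate numbers pair nothing by label, and the deviations of same-numbered libraries correlated at 0.0606; with the replicate block the calls of GPI, PFKP, PFKFB3 and PGK1 were lost. PFKP was lost in 8 alternatives and PFKFB3 in 6. Without a filter GAPDH (adjusted p = 0.0612 in limma), PFKP and PFKFB3 were not called, and with the most abundant transcript GPI, PDHA1, PFKP and PFKFB3 were not. With 1 library left out, the lone library of its group is assumed to vary like the others. The knockdown rests on 1 hairpin, and with FPKM alone the counting error of low genes such as SLC2A6 is unknown.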

Other observations

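The estimates for single transcripts of some members moved more between libraries of 1 group than between the groups, while the gene sums stayed close. PDHB transcript NM_000925 had 25.1 and 15.6 FPKM in control and 9.45 and 26.1 FPKM in knockdown libraries, and the non-coding PDHB transcript NR_033384 had 3.81, 14.9, 17.9 and 1.82 FPKM in the same order. ALDOA transcript NM_000034 had 200 and 36.2 FPKM in the 2 knockdown libraries, beside 454 and 609 FPKM of NM_184041. The non-coding LDHA transcript NR_028500 had 47.0 and 89.4 FPKM in control and 95.5 and 87.4 FPKM in knockdown libraries, where the coding transcript NM_005566 had 156, 138, 138 and 136 FPKM.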
